A study of Mus musculus with 107 samples.

Results

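Ears that received octylhomovanillamide (OHV) 15 min before sulfur mustard were compared with ears that received sulfur mustard alone, across the genes of a pair of expression arrays. OHV is a synthetic analog of capsaicin, the pungent compound of chili peppers. Ears were assigned by their treatment labels, and the 20 arrays of both groups are part of 107 in the series. Right ears of animals 27, 28, 29, 30 and 33 were labelled 0.6 mg OHV followed by 0.08 mg mustard (5 ears, called pretreated ears here). Right ears of animals 1, 3, 5, 36 and 37 were labelled 0.08 mg mustard alone (5 ears). The values of a gene are given below in that order of animals. Mustard (0.5 µmol) was put on the inner side of the ear in 5 µL of methylene chloride. The protocol gives the OHV dose as 0.585 mg (1.995 µmol) in 30 µL of ethanol. The mustard-alone label names neither drug nor ethanol, so OHV and its ethanol cannot be told apart. Skin was taken at 24 h as an 8 mm biopsy, and its RNA went onto array A and array B, 1 of each per ear. Left ears, given methylene chloride, supplied 21 further ears of the mustard series. Other right ears received 6.25 mg dimercaprol or 1.34 mg indomethacin before the same mustard dose (6 ears each). OHV without mustard (5 right ears), ethanol (3 left ears) and naive skin (5 ears) were measured on array A. So were dimercaprol and indomethacin without mustard (4 right ears each). No animal supplied ears to both groups compared, and the strain, sex and age of the mice are not given in the sources used here.

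Sulfur mustard is a bifunctional alkylating agent that modifies DNA and proteins and blisters skin. Injured epidermal keratinocytes switch on wound keratins, alarmins and growth factors, and release chemokines that attract neutrophils, while DNA damage activates the transcription factor p53. Capsaicin and its analogs act on Trpv1, a cation channel of sensory nerve endings that is also found in skin cells.

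The tissue showed a basal keratinocyte marker at high level in every ear. Krt14, a keratin of basal keratinocytes, had scaled signals of 15923, 17351, 16228, 14649.5 and 22642 in pretreated ears, against 24541, 18780.2, 30548, 18524 and 29598 in mustard-alone ears. A scaled signal is the deposited intensity after each array was brought to a trimmed mean of 500. In a biopsy, fewer cells of a type and less RNA per cell cannot be told apart. Mustard ears 5 and 37 stood apart by array quality, and mustard ear 36 by its values for many genes named below.

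Array brightness moved with the groups. The 2% trimmed mean of the deposited signal on array A was 178.2, 193.2, 176.5, 212.3 and 120.2 in pretreated ears, against 116.6, 130.3, 85.7, 136.8 and 66.3 in mustard-alone ears. The log2 difference was 0.74 (2-sided exact permutation test over 252 splits, p = 0.0238, n = 5 each), and 0.60 on array B (exact p = 0.0476). Control probe sets for Gapdh give a log2 ratio of the 3′ end over the 5′ end that rises when RNA is broken. The ratio lay between -0.32 and 0.01 in pretreated ears on array A. In mustard-alone ears it was 0.03, 0.08, 0.63, -0.05 and 0.78, so ears 5 and 37 were both dim and high in this ratio. The difference was -0.40 on array A and -0.42 on array B (exact p = 0.0159 on each). Without mustard ears 5 and 37 these differences were 0.44 and 0.34 for brightness and -0.12 and -0.15 for the Gapdh ratio, and none passed 0.05. The part of brightness and RNA state in the results below was not tested, beyond the values given with these ears left out or these measures in the fit.

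**Figure D1:**
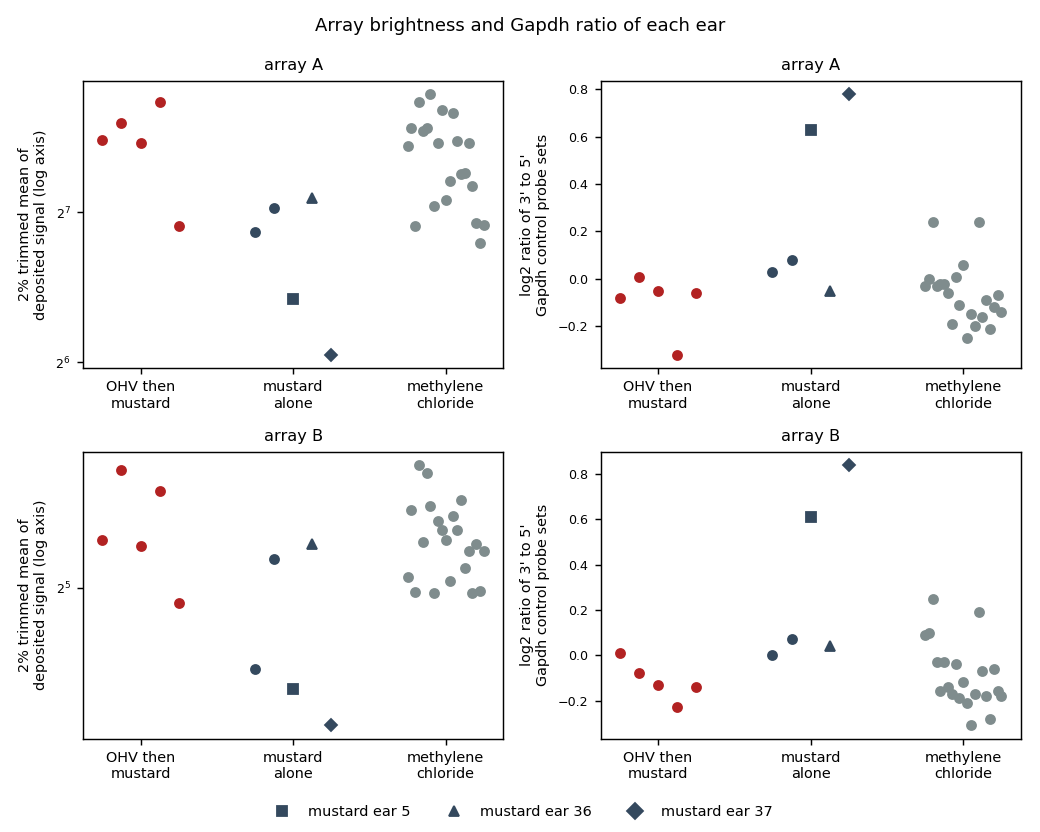
Brightness (left, log axis) and the log2 Gapdh ratio (right) of each ear on array A (top) and array B (bottom), with pretreated, mustard-alone and methylene chloride ears from left to right. Each point is 1 ear. On array A the highest Gapdh ratios among mustard-alone ears are 0.63 in ear 5 and 0.78 in ear 37, and pretreated ears reach 0.01.

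After OHV, 2723 of 15953 probe sets on array A differed from mustard alone (17.1%), with 1668 higher (10.5%) and 1055 lower (6.61%), by limma with Benjamini-Hochberg adjusted p below 0.05. On array B, 1650 of 17287 differed (9.54%), with 1131 higher (6.54%) and 519 lower (3.00%). At least 2-fold differences numbered 214 higher and 113 lower on array A and 342 higher and 146 lower on array B. Every pretreated ear lay above every mustard-alone ear for 408 probe sets of array A (2.56%), and below for 346 (2.17%). Lower genes were led by chemokines and wound-response genes of keratinocytes. The 10 largest rises of array A and the 5 of array B were genes whose level was lower after mustard alone than after methylene chloride (adjusted p below 0.05 for each). Over all probe sets, 23.4% of array A and 13.1% of array B were lower in that comparison. The rises were picked by values of the same mustard-alone ears, so the 2 comparisons are not independent.

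These calls rest on the spread shared by all 43 ears of the mustard series. With the 10 ears of both groups fitted alone, limma called 0 probe sets on array A, where 3758 had an unadjusted p below 0.05, and 1 on array B. Comparing right minus left ears within animals (animal as a fixed block) also called 0, with 2542 at an unadjusted p below 0.05, and 1. Mustard ear 5 has no left ear among the ears used and drops out of that fit. With mustard ears 5 and 37 left out, 79 and 108 probe sets were called, and 26 and 35 when the fit included the Gapdh ratio. Leaving out mustard ear 36 raised the counts to 4136 and 2652, and leaving out mustard ears 5, 36 and 37 gave 1572 and 733. Of the 99 genes followed through these settings, 90 were called in the fit of all 43 ears. All 90 kept their call without mustard ear 36. Without mustard ears 5 and 37, Agap1, Chst15, Dkk2, Krt17, Mt4, Slc22a4, Slc6a2, Slc6a4 and Tppp kept it. Of these, Agap1, Dkk2, Krt17 and Tppp also kept it when either the Gapdh ratio or brightness entered the fit.

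**Figure D2:**
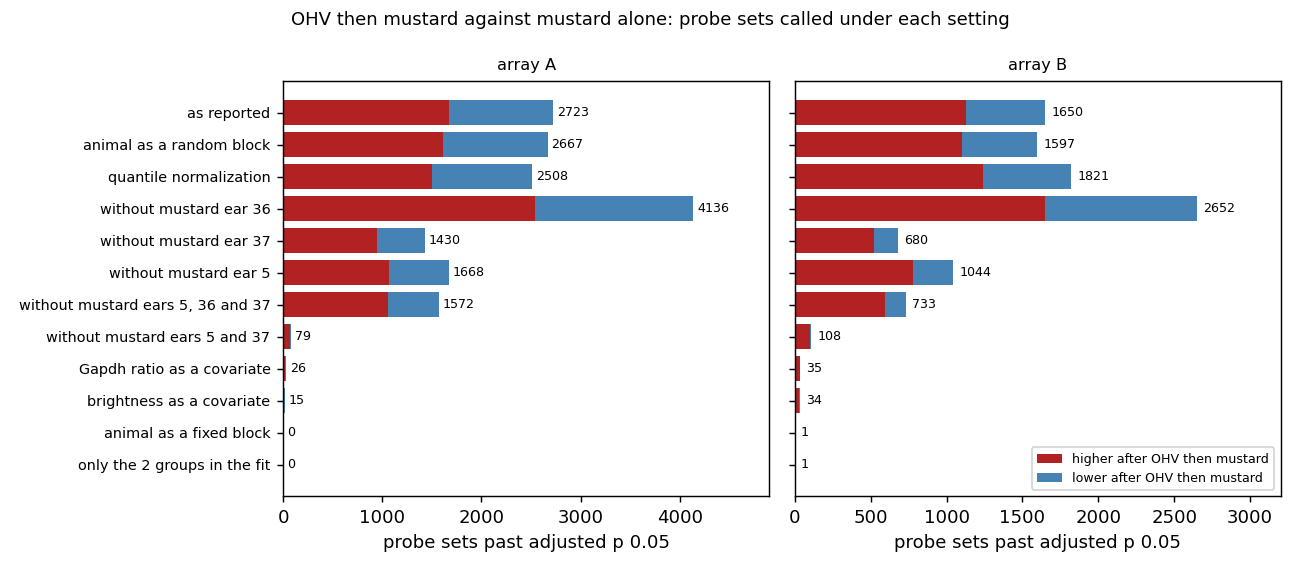
Number of probe sets past an adjusted p of 0.05 between pretreated and mustard-alone ears under 12 settings, on array A (left) and array B (right), with the higher ones in red and the lower ones in blue. The bars run between 0 and 4136 on array A and between 1 and 2652 on array B.

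Among the called genes followed, mustard ear 36 often lay nearer to the pretreated ears than the other 4 mustard-alone ears did. Of the 90 called genes followed, its value fell within the range of the pretreated ears for 67 and within that of the 21 methylene chloride ears for 60. The 2 groups did not overlap for 17 of the 90, which had been chosen among called genes, where 2.56% of all array A probe sets were higher and 2.17% lower without overlap. Among pretreated ears, 27 and 29 kept the highest levels of many keratinocyte response genes. For S100a8 these ears read 5473 and 10583, while the other pretreated ears read 734, 2285 and 1421.

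Chemokines that recruit neutrophils were lower after OHV. Cxcl2 had scaled signals of 86.2, 69.9, 354, 352 and 67.8 in pretreated ears, against 883, 1644, 3160.4, 123 and 5645 in mustard-alone ears. Its level was 8.21-fold lower in pretreated ears (log2 difference -3.04 ± 0.67, adjusted p = 0.00237). Cxcl1 had 241, 115, 539, 82.7 and 78.2 in pretreated ears, against 1533, 1557, 1918, 141 and 1997 in mustard-alone ears (log2 difference -2.61 ± 0.63, adjusted p = 0.0043). For both genes the 5 pretreated ears and mustard ear 36 were low and the other 4 mustard-alone ears were high. On array B, Cxcl3 had 91, 46.3, 95.8, 141 and 6.6 in pretreated ears, against 425, 1329.9, 1437, 93.7 and 3083 in mustard-alone ears. It was 10.2-fold lower (log2 difference -3.35 ± 0.68, adjusted p = 0.00129), the largest fall of array B by the naming rule, and the groups overlapped at ear 36. Cxcl1 was also lower by its probe sets of array B, at -1.26 and -2.44 (adjusted p = 0.00284 and 0.00166). Methylene chloride ears read 35.4 to 299 for Cxcl2, 5.6 to 70.6 for Cxcl1 and 9.1 to 151 for Cxcl3.

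These 3 genes lie close together on chromosome 5, and their promoters carry the same short stretch. The 250 bases before each start are shown because the genes fell together. Capitals mark GGGAATTTCCC, the longest stretch of bases that all 3 share, at 11 bases. It holds a form of the NF-kB binding motif. Sequences are from RefSeq (GRCm38.p6), written 5′ to 3′ on the strand of the gene.
Cxcl1 promoter, chr5:90890995-90891244, plus strand: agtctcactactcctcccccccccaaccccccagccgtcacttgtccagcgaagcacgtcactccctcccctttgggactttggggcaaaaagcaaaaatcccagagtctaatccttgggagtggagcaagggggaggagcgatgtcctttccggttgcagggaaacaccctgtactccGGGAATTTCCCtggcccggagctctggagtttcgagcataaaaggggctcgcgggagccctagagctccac
Cxcl2 promoter, chr5:90903649-90903898, plus strand: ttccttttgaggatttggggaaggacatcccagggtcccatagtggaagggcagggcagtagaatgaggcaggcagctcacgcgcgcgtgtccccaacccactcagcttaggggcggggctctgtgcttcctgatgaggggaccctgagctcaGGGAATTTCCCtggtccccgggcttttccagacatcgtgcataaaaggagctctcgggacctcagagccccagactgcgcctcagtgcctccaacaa
Cxcl3 promoter, chr5:90785851-90786100, plus strand: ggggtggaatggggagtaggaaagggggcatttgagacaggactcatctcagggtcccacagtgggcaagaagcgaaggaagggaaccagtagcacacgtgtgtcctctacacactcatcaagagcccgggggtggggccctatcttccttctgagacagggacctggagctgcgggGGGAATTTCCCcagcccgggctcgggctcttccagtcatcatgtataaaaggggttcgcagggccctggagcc
The stretch began 71, 97 and 73 bases before the start of Cxcl1, Cxcl2 and Cxcl3. On either strand it was present in 14 of 32851 RefSeq promoters of that length (0.0426%). Promoters were found for 81 of the 99 genes followed, and it was in 3 of them. It was chosen from these 3 promoters. The genes are related copies, so their sequences are not independent, and a match describes letters and not a site in use.

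Of 10 measured acute cytokines and chemokines, 6 fell and 0 rose, with a median log2 difference of -0.82, against 0.01 over all probe sets tested. Of all array A probe sets, 6.61% were lower. Il1b, the inflammatory cytokine interleukin 1 beta, had 220.0, 183, 308, 365 and 155 in pretreated ears, against 573, 1223, 1590.1, 244 and 3549 in mustard-alone ears (log2 difference -2.02 ± 0.40, adjusted p = 0.00121). Pretreated ears 27, 28 and 33 lay within the 105 to 296 of methylene chloride ears, and ear 36 was the lowest of the mustard-alone ears. Socs3, a feedback inhibitor of cytokine signalling, had 493, 557, 1030.4, 683 and 597 in pretreated ears, against 1959.8, 1382, 2431, 512 and 2048 in mustard-alone ears (log2 difference -1.16 ± 0.29, adjusted p = 0.00616). Tnf, the cytokine tumour necrosis factor, did not pass, at -0.45 ± 0.41 (adjusted p = 0.489). Saa3, an acute-phase protein, fell by 1.76 on the log2 scale (adjusted p = 0.00349). With mustard ears 5 and 37 left out, 0 of the 10 cytokines and chemokines were called and their median was -0.64. In that fit 79 of all 15953 array A probe sets were called. Without ear 36, 7 fell, where 1599 of all 15953 array A probe sets were lower.

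Neutrophil markers were lower in part. Of 12 measured, 5 fell and 0 rose, with a median of -0.37, where 6.61% of all array A probe sets were lower. Their summed signal was 3417 to 4365 in pretreated ears, 3982 to 8131 in mustard-alone ears and 3025 to 5433 in methylene chloride ears. Csf3r, the receptor for granulocyte colony-stimulating factor, had 135, 45.3, 117, 104 and 114 in pretreated ears, against 253, 394, 210.1, 147 and 494 in mustard-alone ears. It was 2.55-fold lower with no overlap between groups (log2 difference -1.35 ± 0.36, adjusted p = 0.0095). Clec4d, a lectin receptor of myeloid cells, had 103 to 189 in pretreated ears, against 102 to 1596 in mustard-alone ears (log2 difference -1.47 ± 0.35, adjusted p = 0.00454). Lcn2, the siderophore-binding lipocalin made by neutrophils and by injured epithelium, had 382 to 1409 in pretreated ears, against 895 to 3130.0 in mustard-alone ears (log2 difference -1.55 ± 0.40, adjusted p = 0.00714). None of the 12 was called once mustard ears 5 and 37 were left out, where 79 of all 15953 array A probe sets were called.

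Of 18 measured macrophage markers 2 rose and 3 fell, where 10.5% of all array A probe sets were higher and 6.61% lower. Clec7a, the beta-glucan receptor Dectin-1, had 196, 128, 289, 142 and 143 in pretreated ears, against 481, 954, 771, 130.1 and 1347 in mustard-alone ears (log2 difference -1.67 ± 0.35, adjusted p = 0.00182). Cd68, a lysosomal protein of macrophages, fell by 0.71 (adjusted p = 0.00911). Ctss, a lysosomal protease of antigen-presenting cells, was higher with no overlap, at 869 to 1395 in pretreated ears, against 495 to 848 in mustard-alone ears (log2 difference 0.71 ± 0.17, adjusted p = 0.00365). A pair of MHC class II genes was higher as well. H2-Aa, a chain of MHC class II, had 2282, 2213, 2235, 2288 and 1754 in pretreated ears, against 1129, 1088, 1174, 1174 and 1555 in mustard-alone ears (log2 difference 0.81 ± 0.23, adjusted p = 0.0133). Cd74, the invariant chain that accompanies class II, had 2396 to 3151 in pretreated ears, against 1351 to 2289 in mustard-alone ears (log2 difference 0.58 ± 0.18, adjusted p = 0.0206). For both, every pretreated ear lay above every mustard-alone ear on array A. The array B probe sets of H2-Aa stood at 1.02 and 0.90 (adjusted p = 0.216 and 0.0947). The summed signal of the 12 Langerhans and antigen-presenting markers was 9785 to 11856 in pretreated ears and 6332 to 9107 in mustard-alone ears. It was 9207 to 19130 in methylene chloride ears. Of the 12, H2-Aa and Cd74 rose, the integrin gene Itgax fell and 9 were not called. Their median log2 difference was 0.12.

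Wound-response genes of keratinocytes include those of the alarmins and wound keratins. Of 24 measured on array A, 13 fell and 0 rose, with a median log2 difference of -1.60, where 6.61% of all probe sets were lower. Their summed signal was 26144 to 119228 in pretreated ears, 40484 to 220246 in mustard-alone ears and 9023 to 19363 in methylene chloride ears. Krt16, a keratin of wounded and hyperproliferative epidermis, had 7020.0, 1382, 11250.4, 3976 and 2042 in pretreated ears, against 21976, 16826, 21967, 3932 and 22008 in mustard-alone ears. Its fall was 3.79-fold (log2 difference -1.92 ± 0.59, adjusted p = 0.0214), with the highest pretreated values in ears 27 and 29. Krt17, another keratin of injured epidermis, had 1842, 1479, 3467, 1872 and 1892 in pretreated ears, against 8691, 8236, 8714, 2498 and 9072 in mustard-alone ears. Its fall was 3.33-fold (log2 difference -1.74 ± 0.25, adjusted p = 0.000148), and the other 4 mustard-alone ears lay above every pretreated ear.

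The alarmins S100a8 and S100a9, which pair to form calprotectin, both fell. S100a8 had 5473, 734, 10583, 2285 and 1421 in pretreated ears, against 16493, 14936, 20457, 2714 and 19922 in mustard-alone ears (log2 difference -2.18 ± 0.68, adjusted p = 0.0217). S100a9 was 4.65-fold lower (log2 difference -2.22 ± 0.67, adjusted p = 0.0194). Even so, every pretreated ear exceeded every methylene chloride ear for S100a8, whose range there was 109 to 499. Sprr2f, a cornified envelope protein, had 822, 233, 2932, 529 and 145 in pretreated ears, against 3922, 5185, 4568, 430.4 and 5887 in mustard-alone ears (log2 difference -2.43 ± 0.63, adjusted p = 0.00679). Epgn, a ligand of the epidermal growth factor receptor, had 301 to 3746 in pretreated ears, against 622 to 7960.3 in mustard-alone ears (log2 difference -2.21 ± 0.59, adjusted p = 0.00844). Has3, a hyaluronan synthase, had 169, 22, 215, 64.5 and 14.6 in pretreated ears, against 637, 536, 502, 20.5 and 489 in mustard-alone ears (log2 difference -1.95 ± 0.58, adjusted p = 0.017). In each of these genes mustard ear 36 lay inside the range of the pretreated ears.

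Further members of the group fell as well. Stfa3, an intracellular inhibitor of cysteine proteases, fell by 1.70, Gjb2, the gap junction protein connexin 26, by 1.31 and Krt6a, a wound keratin, by 1.61 on the log2 scale (adjusted p = 0.00462, 0.00319 and 0.00521). Outside the group, Tubb6, a beta-tubulin, was 4.26-fold lower (adjusted p = 0.00758), while its array B probe set stood at 0.67 (adjusted p = 0.512). On array B, Lce3f, a late cornified envelope protein, was 5.7-fold lower (log2 difference -2.51 ± 0.66, adjusted p = 0.011). Krt6b and the antimicrobial peptide gene Defb3 did not pass, at -1.68 and -1.79 (adjusted p = 0.127 and 0.0908). Without mustard ears 5 and 37, 1 of the 24 genes was called, Krt17, and the median was -1.26. In that fit 79 of all 15953 array A probe sets were called. Without ear 36, 17 fell, where 1599 of all 15953 array A probe sets were lower.

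**Figure D3:**
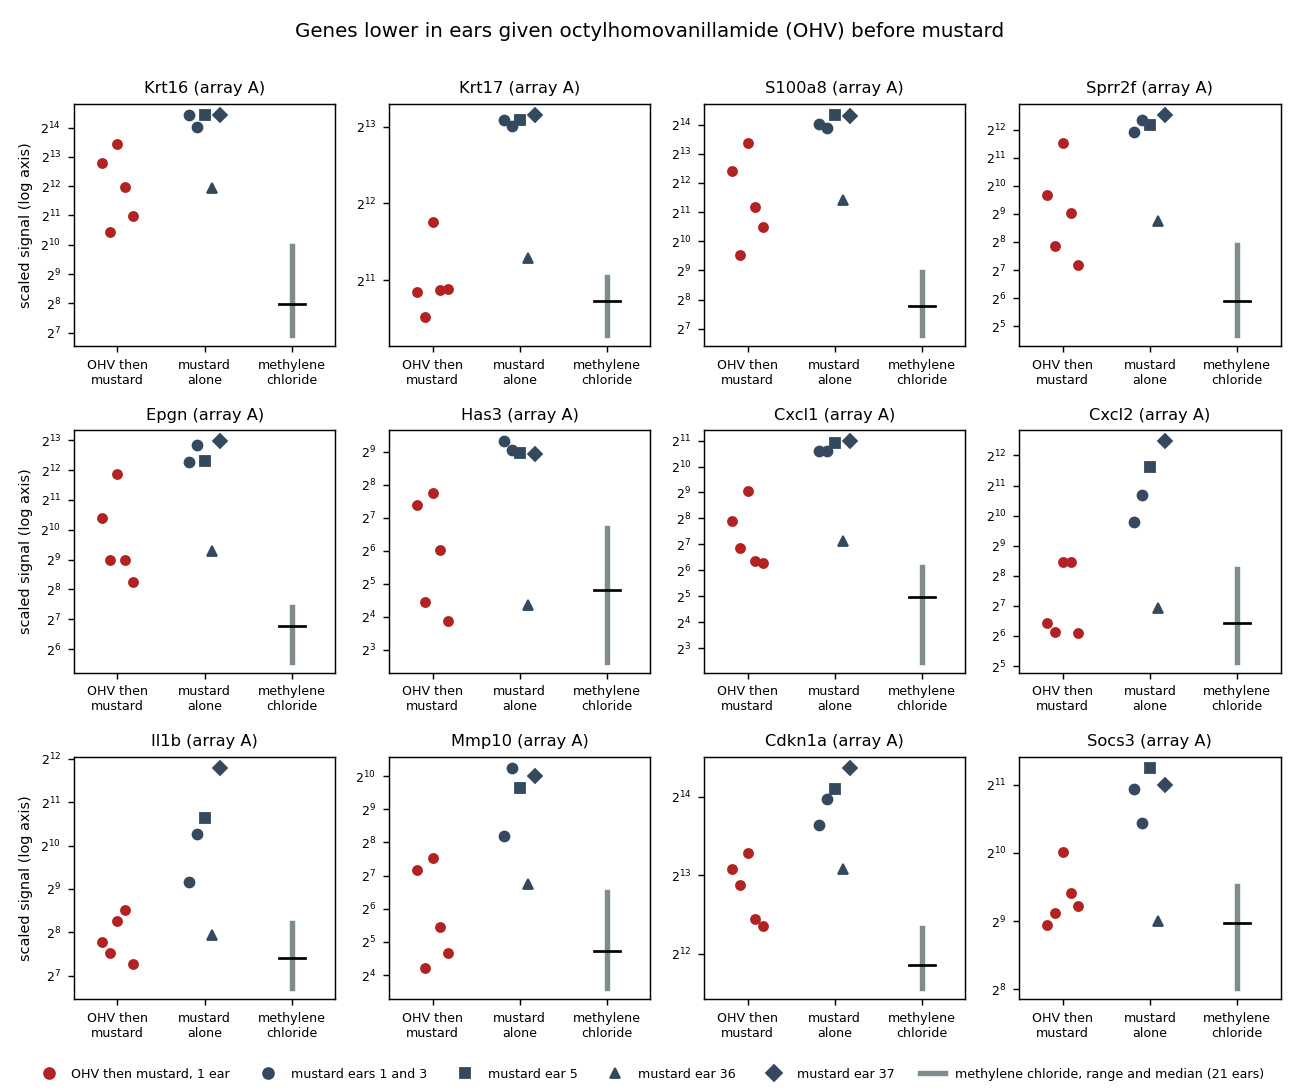
Scaled signal (log axis) of 12 genes that fell, with pretreated ears (red), mustard-alone ears (dark) and the range and median of 21 methylene chloride ears (grey bar) from left to right. Each point is 1 ear, and mustard ears 5, 36 and 37 have their own symbols. Mustard ear 36 (triangle) lies within the range of the pretreated ears for each of the 12 genes.

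Of 15 measured matrix remodelling genes 6 fell, 0 rose and 9 were not called, where 6.61% of all probe sets of array A were lower. Their summed signal was 8643 to 16500 in pretreated ears, against 9955 to 14667 in mustard-alone ears, and the ranges overlap. Their median log2 difference of -0.37 was 0.20, over 9 genes, when only probe sets with a mean of at least 300 were kept. Mmp10, the matrix metalloproteinase stromelysin 2, had 143, 18.4, 184, 43.8 and 25.4 in pretreated ears, against 295, 1219.5, 797, 108 and 1017 in mustard-alone ears. It was 6.82-fold lower (log2 difference -2.77 ± 0.56, adjusted p = 0.00129), and the pretreated ears split into a higher pair, ears 27 and 29, and 3 lower ears. Its promoter is shown because it carries the AP-1 motif TGANTCA, which is its own reverse complement, in capitals.
Mmp10 promoter, chr9:7502092-7502341, plus strand: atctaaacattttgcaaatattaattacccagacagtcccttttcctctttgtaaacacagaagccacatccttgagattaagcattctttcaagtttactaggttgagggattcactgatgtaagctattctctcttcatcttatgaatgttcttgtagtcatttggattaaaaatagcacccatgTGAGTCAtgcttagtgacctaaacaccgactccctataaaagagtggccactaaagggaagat
The motif began 63 bases before the start. It was present in 2217 of the 32851 promoters (6.75%). Of the 81 genes followed here with a promoter found, 11 carried it. The first count is of promoters and the second of genes. A match describes letters and not a site in use. Fosl1, an AP-1 subunit, had 358, 212, 667, 221 and 246 in pretreated ears, against 899, 1497, 1055, 321 and 1036 in mustard-alone ears (log2 difference -1.44 ± 0.38, adjusted p = 0.00831). Adam8, a membrane metalloprotease of leukocytes, fell by 0.87, Timp1, a metalloproteinase inhibitor, by 0.97 and Plaur, the urokinase receptor, by 0.91 (adjusted p = 0.00249, 0.0289 and 0.00619). F3, tissue factor, which starts coagulation, rose with no overlap, at 742, 1411, 590.1, 1097 and 574 in pretreated ears, against 464, 366, 203, 454 and 197 in mustard-alone ears (log2 difference 1.35 ± 0.33, adjusted p = 0.00462).

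Targets of p53 fell in part and stayed above methylene chloride in part. Of 24 measured p53 and DNA damage genes, 8 fell and 2 rose against mustard alone, with a median of -0.44. Over all array A probe sets, 6.61% were lower and 10.5% higher in that comparison. Against methylene chloride, 14 of the 24 were higher in pretreated ears, where 1.82% of all probe sets were higher and 441 differed (2.76%). In mustard-alone ears 17 were higher than in methylene chloride ears, where 19.3% of all probe sets were higher and 6825 differed (42.8%). Cdkn1a, the cell cycle inhibitor p21, had 8640.2, 7501, 9953, 5568 and 5248 in pretreated ears, against 12759, 16008, 17484, 8644 and 21126 in mustard-alone ears (log2 difference -1.02 ± 0.18, adjusted p = 0.000617). Its level in pretreated ears exceeded the 3027 to 5146 of methylene chloride ears, with a log2 difference of 0.90 in pretreated ears (adjusted p = 3.94e-05) and 1.93 in mustard-alone ears.

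Plk2, a p53-induced kinase, had 1673, 1379, 2896, 1781 and 1059.8 in pretreated ears, against 3952, 4853, 3168, 1933 and 4562 in mustard-alone ears (log2 difference -1.07 ± 0.23, adjusted p = 0.00164). Its array B probe set stood at -0.42 (adjusted p = 0.321). Mdm2, the ubiquitin ligase that degrades p53, had 475 to 1579.7 in pretreated ears, against 1094 to 2449 in mustard-alone ears (log2 difference -0.92 ± 0.24, adjusted p = 0.00773). Against methylene chloride, Plk2 was 1.29 and Mdm2 1.03 higher on the log2 scale in pretreated ears (adjusted p = 2.46e-06 and 0.000487). The values in mustard-alone ears were 2.37 and 1.95. Xpc, the damage sensor of nucleotide excision repair, went the other way and rose by 0.69 (adjusted p = 0.00435), with pretreated ears at 301 to 567 and mustard-alone ears at 178 to 386. Leaving out mustard ears 5 and 37 left 0 of the 24 called, and 79 of all 15953 array A probe sets.

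Immediate early genes had 8 of 24 members lower and 0 higher, with a median of -0.53. Over all array A probe sets, 6.61% were lower and 10.5% higher. Jun, an AP-1 subunit, had 1002, 964, 939, 716 and 894 in pretreated ears, against 1046, 3031, 1478, 922 and 3541 in mustard-alone ears (log2 difference -0.93 ± 0.22, adjusted p = 0.00349), and mustard ears 3 and 37 read highest. The other probe set of Jun stood at -0.40 (adjusted p = 0.139). Ier3, an early response gene of NF-kB and p53, had 1050.2 to 2106 in pretreated ears, against 1442 to 4521 in mustard-alone ears (log2 difference -1.11 ± 0.22, adjusted p = 0.0012). Zfp36, which speeds decay of cytokine mRNAs, fell by 0.92 (adjusted p = 0.0024). Of 14 NF-kB and feedback genes, 5 fell and 1 rose. The adhesion molecule Icam1 fell by 0.94 (adjusted p = 0.00559), and Tnip1, an inhibitor of NF-kB signalling, rose by 0.46 (adjusted p = 0.00844).

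The heat shock, endoplasmic reticulum and glycolysis groups had medians between -0.35 and -0.10. Their counts are read against the 6.61% of all array A probe sets that were lower and the 10.5% that were higher. Of 14 heat shock genes, 4 fell. Hspa8, a constitutive chaperone, had 6227, 5428, 6469, 6581 and 6675 in pretreated ears, against 8862, 7545, 8688, 8259 and 6808 in mustard-alone ears, a small difference with no overlap (log2 difference -0.35 ± 0.09, adjusted p = 0.00632). Of 19 genes of endoplasmic reticulum stress and the amino acid response, 6 fell and 2 rose. Hspa5, the chaperone BiP, had 5394, 5381, 2928, 5148 and 5255 in pretreated ears, against 8645, 8848, 11416, 5303 and 11807 in mustard-alone ears (log2 difference -0.91 ± 0.17, adjusted p = 0.0011), while its array B probe set stood at -0.17 (adjusted p = 0.325). Its co-chaperone Dnajb9 fell by 0.69 and the transcription factor Atf4 by 0.55 (adjusted p = 0.00435 and 0.00787). Of 16 glycolysis and hypoxia genes, 5 fell. The glycolytic enzyme Ldha had 4810.5 to 6416 in pretreated ears, against 6530.0 to 9540.1 in mustard-alone ears, with no overlap (log2 difference -0.47 ± 0.12, adjusted p = 0.00655), and the angiogenic factor Vegfa fell by 0.88 (adjusted p = 0.00446). On values without rescaling the median of all probe sets of array A was 0.71, and Hspa8, Dnajb9, Atf4, Ldha, Mt2, Krt14 and Cd68 had a positive sign. Every direction given here, of these and of all other genes, is relative to the mean of each array.

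Oxidative stress genes were mixed, with 3 of 16 higher and 2 lower. Over all array A probe sets, 10.5% were higher and 6.61% lower. Catalase, encoded by Cat, rose with no overlap, at 2153, 2641, 1694, 2225 and 1860.0 in pretreated ears, against 1102, 826, 921, 1508 and 771 in mustard-alone ears (log2 difference 1.06 ± 0.20, adjusted p = 0.00101). Gstm1, a glutathione S-transferase, rose by 0.48 (adjusted p = 0.0254). The other probe sets of Gstm1 stood at 0.27, 0.29 and 0.51 (adjusted p = 0.336, 0.245 and 0.0212). Mt2, a metallothionein, fell with no overlap, at 5276 to 7751 in pretreated ears, against 8298 to 13708 in mustard-alone ears (log2 difference -0.63 ± 0.17, adjusted p = 0.00829). Hmox1, heme oxygenase 1, did not pass, at -0.15 (adjusted p = 0.565). Of 11 interferon-stimulated genes 3 fell, among them Rsad2, an antiviral enzyme, by 0.84 (adjusted p = 0.0205). Its other probe set stood at 0.22 (adjusted p = 0.452). Of 9 aryl hydrocarbon and xenobiotic genes, the cytochrome gene Cyp1b1 rose by 0.69 and Tiparp, a repressor of the aryl hydrocarbon receptor, fell by 0.78 (adjusted p = 0.0178 and 0.011). The other probe sets of Tiparp stood at -0.16 and -0.17 (adjusted p = 0.652 and 0.71), and that of Cyp1b1 at 0.40 (adjusted p = 0.3).

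Mycl was among the array A genes that rose. Mycl, a Myc family transcription factor, had 395, 705, 318, 517 and 582 in pretreated ears, against 128, 24.9, 37.4, 442 and 17.3 in mustard-alone ears. It was 5.8-fold higher (log2 difference 2.54 ± 0.45, adjusted p = 0.000617), while its other probe sets rose by 0.95 and 0.84. Mt4, a metallothionein of epithelium in layers such as epidermis, had 6342, 6845, 4239, 5173 and 6623 in pretreated ears, against 1403, 397, 606, 4879.5 and 741 in mustard-alone ears. It was 5.43-fold higher (log2 difference 2.44 ± 0.43, adjusted p = 0.000617), and pretreated ears lay within the 3302 to 9879 of methylene chloride ears. In both genes mustard ear 36 sat among the pretreated ears and the other 4 mustard-alone ears lay below all of them.

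Slc6a4, the serotonin transporter, had 250.1, 411, 172, 296 and 334 in pretreated ears, against 31.3, 21.9, 10.5, 314 and 33.9 in mustard-alone ears (log2 difference 2.31 ± 0.40, adjusted p = 0.000498). Dkk2, a secreted Wnt antagonist, had 279.5, 204, 174, 118 and 235 in pretreated ears, against 51, 8.8, 9.3, 148 and 18.1 in mustard-alone ears. It was 4.46-fold higher (log2 difference 2.16 ± 0.31, adjusted p = 0.000148) and is among the 4 genes that kept their call with the Gapdh ratio in the fit, at 1.66. Chst15, a sulfotransferase of chondroitin sulfate, had 156 to 392 in pretreated ears, against 34.9 to 208 in mustard-alone ears (log2 difference 1.95 ± 0.34, adjusted p = 0.000617). The values of mustard ears 3, 5 and 37 for Dkk2 were 8.8, 9.3 and 18.1, below the pseudocount of 16 or near it, and its log2 difference was 1.36 with a pseudocount of 64.

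A pair of these genes separated the groups with ear 36 included. Serpinb7, an epidermal inhibitor of serine proteases, had 1695, 2583, 1479, 2751 and 2083 in pretreated ears, against 751, 528, 366, 1329 and 349.7 in mustard-alone ears (log2 difference 1.79 ± 0.32, adjusted p = 0.000617). Slc22a4, an organic cation and ergothioneine transporter, had 220.0, 379, 272, 261 and 290.3 in pretreated ears, against 154, 20.3, 56.6, 200.2 and 34.7 in mustard-alone ears (log2 difference 1.77 ± 0.31, adjusted p = 0.000617). The remaining large rises were Gas1, a Hedgehog co-receptor, at 1.85, Dym, the Golgi protein dymeclin, at 1.81, and Fmo2, a flavin monooxygenase, at 1.71 (adjusted p = 0.000984, 0.000959 and 0.0029). The array B probe set of Dym stood at 0.23 (adjusted p = 0.783). Fmo2 also rose on array B, by 2.27 with no overlap (adjusted p = 0.000313). Serpinb7 had an unadjusted p of 0.00904 between the methylene chloride left ears of the same animals, at 0.86 higher in OHV animals (adjusted p = 0.501).

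On array B, Agap1, an Arf GTPase-activating protein, had 611, 448, 514, 810.2 and 812 in pretreated ears, against 305, 37.7, 78.8, 80.5 and 40.1 in mustard-alone ears. It was 6.54-fold higher with no overlap (log2 difference 2.71 ± 0.39, adjusted p = 3.92e-05). Its other array B probe set stood at 1.28 (adjusted p = 0.0955) and its array A probe set at -0.25 (adjusted p = 0.23), so the probe sets differ. Slc6a2, the noradrenaline transporter, had 1073, 1918, 781, 2499 and 2481 in pretreated ears, against 172, 67, 633, 1480.0 and 69.5 in mustard-alone ears (log2 difference 2.60 ± 0.52, adjusted p = 0.00102). Its remaining probe sets stood at 0.05, 0.17 and -0.13, with adjusted p of 0.851, 0.629 and 0.676. Atp10b, a lipid flippase, rose by 2.79, Tppp, which promotes tubulin polymerisation, by 2.46 and Frmpd1, a scaffold protein with FERM and PDZ domains, by 2.38 (adjusted p = 0.000884, 7.09e-05 and 0.000627). The other falls of array B were Pde1a, a calmodulin-dependent phosphodiesterase, at -1.83, Clmn, calmin, at -1.82, and H3f3b, a histone H3.3 gene, at -2.75 (adjusted p = 0.0111, 0.0089 and 0.00133). H3f3b is uncertain because near-identical copies exist, and the array A probe sets of Pde1a and Clmn stood at 0.36 and 0.20.

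**Figure D4:**
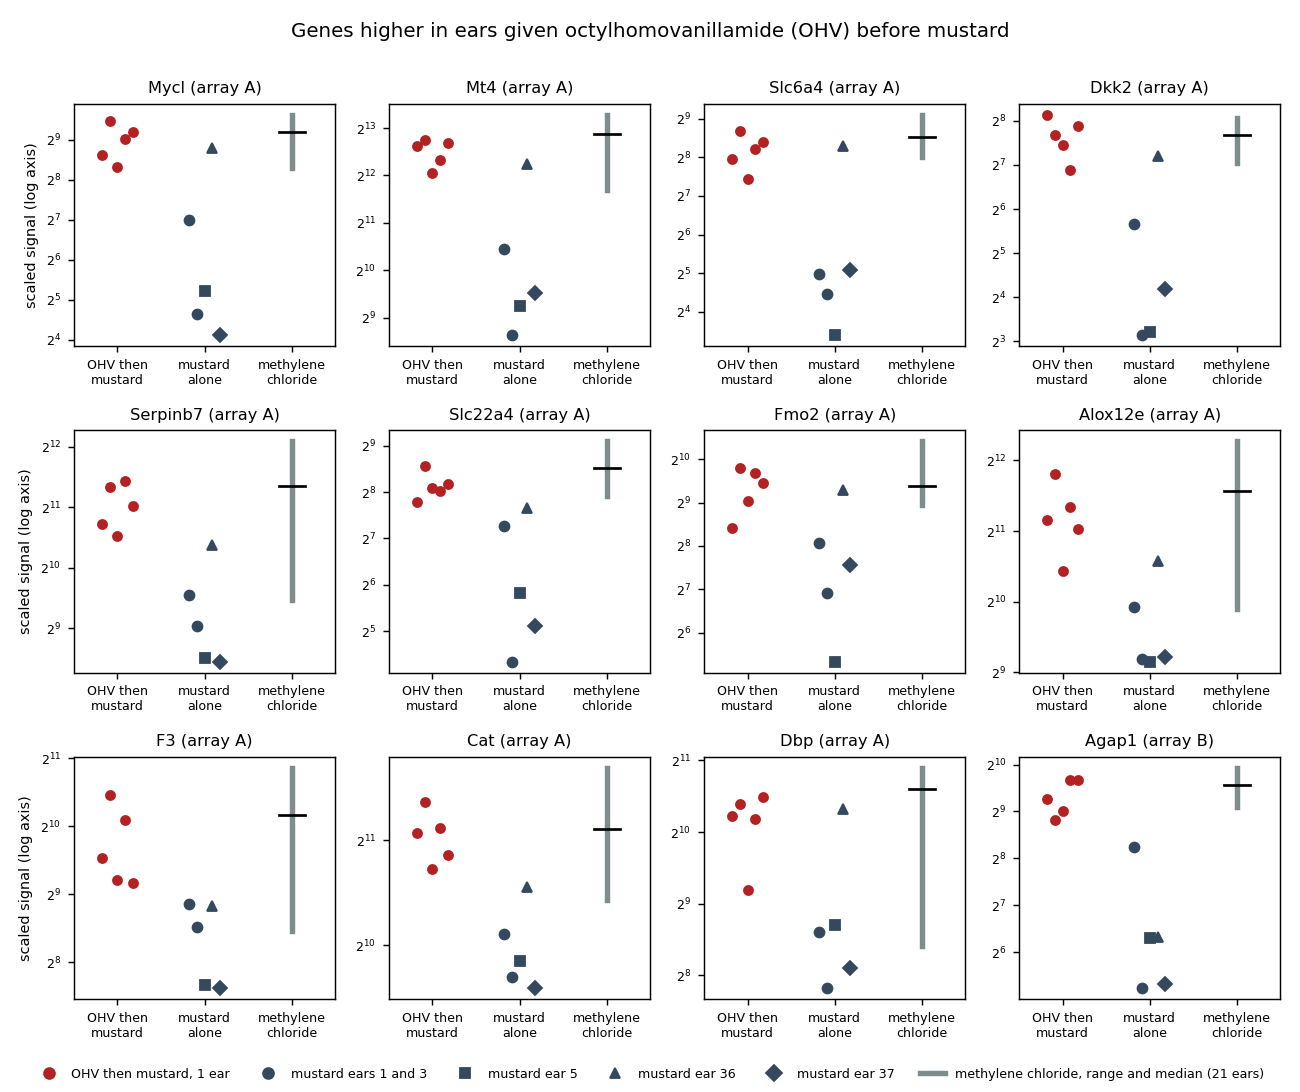
Scaled signal (log axis) of 12 genes that rose, drawn as in the plot of genes that fell. Pretreated ears (red) lie above every mustard-alone ear for Serpinb7, Slc22a4, F3, Cat and Agap1. For the remaining 7 genes mustard ear 36 (triangle) reaches the range of the pretreated ears.

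In the eicosanoid list, 4 of 19 genes were higher and 0 lower, where 10.5% of all array A probe sets were higher and 6.61% lower. Pla2g4a, the cytosolic phospholipase that frees arachidonic acid, had 354, 494, 611, 505 and 412 in pretreated ears, against 326, 172, 146, 362 and 169.6 in mustard-alone ears (log2 difference 1.03 ± 0.21, adjusted p = 0.00144). Alox12e, an epidermal 12-lipoxygenase of the mouse, had 2284, 3601, 1387, 2599 and 2086 in pretreated ears, against 976, 586, 569, 1526 and 595 in mustard-alone ears (log2 difference 1.52 ± 0.37, adjusted p = 0.00469). Lta4h, which makes leukotriene B4, rose by 0.55 (adjusted p = 0.00408). Ptgs2, the inducible cyclooxygenase, had 55.3, 76.1, 147, 102 and 61.1 in pretreated ears, against 131, 123, 158, 138 and 195 in mustard-alone ears. Its difference of -0.71 did not pass (adjusted p = 0.0638). None of the 19 was called once mustard ears 5 and 37 were left out, where 79 of all 15953 array A probe sets were called.

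The vanilloid, neuropeptide and cannabinoid genes, which include the known receptor of capsaicin analogs, gave no call. Of 14 measured on array A, 0 were called by limma and 0 had an unadjusted p below 0.05. Of 10 measured on array B, 0 were called and 4 had an unadjusted p below 0.05, with Bdkrb2 at -1.11, Trpa1 at -0.78, Napepld at 1.27 and Trpv1. Bdkrb2 encodes a bradykinin receptor, Trpa1 an irritant-sensing channel and Napepld an enzyme that makes fatty acid amides. Bdkrb2, Trpa1 and Napepld were named after their values were seen. Trpv1 on array B had 279.6, 236, 299, 324 and 204 in pretreated ears, against 363, 479, 454, 265 and 532 in mustard-alone ears, at -0.59 ± 0.23 (adjusted p = 0.0877). Tac1, the precursor of substance P, on array B had 690.4, 535, 503, 542 and 445 in pretreated ears, against 558, 462, 1300.4, 608 and 468 in mustard-alone ears. The difference was -0.21 ± 0.25 (adjusted p = 0.65), and it changed sign to 0.05 without mustard ear 5, whose value was the highest. Faah, which degrades fatty acid amides, stood at 0.25 ± 0.14 on array A (adjusted p = 0.218). Sensory nerve cell bodies lie outside the biopsy, so their transcripts are measured here as far as skin holds them.

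Counts of barrier and lipid genes are read against the 10.5% of all array A probe sets that were higher and the 6.61% that were lower. Of 22 epidermal differentiation genes 3 rose and 1 fell, among them Flg, filaggrin, at 0.58 and the cornified envelope gene Lce1b at 0.58 (adjusted p = 0.0354 and 0.00972). Of 15 basal keratinocyte genes Trp63, the lineage factor p63, rose by 0.60, and Krt14 and the integrin Itga3 fell. The array B probe set of Trp63 stood at -0.40 (adjusted p = 0.403). Itga3 had 676, 584, 804, 621 and 937 in pretreated ears, against 1110.3, 1438, 2077, 1101 and 1862 in mustard-alone ears, with no overlap (log2 difference -1.02 ± 0.21, adjusted p = 0.00145). Its other probe set stood at -0.01 (adjusted p = 0.984). Of 23 sebaceous and lipid synthesis genes 5 rose and 1 fell, with Srebf1, the lipogenic factor, at 0.53 and Dgat2, a triglyceride synthase, at 0.47 (adjusted p = 0.0171 and 0.0061). Without ear 36, 12 of the 23 rose, where 2537 of all 15953 array A probe sets were higher. Lpl, lipoprotein lipase of fat tissue, rose by 0.75 (adjusted p = 0.0123). Slc40a1, the iron exporter ferroportin, rose by 1.35 (adjusted p = 0.00126).

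Clock output genes had a median log2 difference of 0.49 on array A, with 6 of 13 higher and 0 lower. Over all array A probe sets, 10.5% were higher and 6.61% lower. Dbp, a clock-controlled transcription factor, had 1196, 1342, 586, 1160.0 and 1431 in pretreated ears, against 391, 227, 416, 1281 and 276 in mustard-alone ears (log2 difference 1.34 ± 0.39, adjusted p = 0.0139). Hlf, its relative, had 563 to 1464 in pretreated ears, against 173 to 1329 in mustard-alone ears (log2 difference 1.30 ± 0.37, adjusted p = 0.0134). Nr1d2, the clock repressor Rev-erb beta, rose by 0.69 (adjusted p = 0.00446). Mustard ear 36 lay within the pretreated range for Dbp and Hlf. Without ear 36, 9 of the 13 rose, where 2537 of all 15953 array A probe sets were higher. The count was 0 of 13 once mustard ears 5 and 37 were left out, where 66 of the 15953 were higher. The times of day of treatment and biopsy are not given in the sources used here. Of 19 proliferation genes 2 rose, among them Ccnb2, the mitotic cyclin B2, with 132, 168, 129, 192 and 225 in pretreated ears, against 45, 66, 14.6, 251 and 41.4 in mustard-alone ears (log2 difference 1.28 ± 0.29, adjusted p = 0.00297). Mki67, a marker of cycling cells, stood at 0.69 (adjusted p = 0.118).

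Markers of other cell types of the ear gave few calls. Mast cell, T cell, B cell, endothelial, fibroblast, cartilage and Schwann cell markers had 0 calls by limma among 7, 4, 3, 13, 19, 11 and 7 measured, of which 0, 1, 0, 1, 4, 0 and 0 had an unadjusted p below 0.05. Of 21 hair follicle, 9 adipocyte and 8 melanocyte genes of array A 1 each rose, and of 11 metal-handling genes 2 rose and 2 fell. Over all array A probe sets, 10.5% were higher and 6.61% lower. The melanocyte gene Mlana, on array B, went the other way and fell by 1.12 on the log2 scale. Of 22 skeletal muscle markers, Tpm2, a tropomyosin, fell by 1.00 (adjusted p = 0.031). Its other probe sets stood at -0.30, -0.63 and -0.57 (adjusted p = 0.668, 0.215 and 0.354). The summed muscle signal was 67273 to 198509 in pretreated ears and 95623 to 160461 in mustard-alone ears. Of 2 red blood cell markers, Alas2, the heme synthesis enzyme of red cell precursors, fell with no overlap, at 324, 183, 300.3, 280.5 and 208 in pretreated ears, against 468, 529.5, 869.8, 366 and 601 in mustard-alone ears (log2 difference -1.05 ± 0.28, adjusted p = 0.00912). The part of muscle or blood content in the results was not tested.

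**Figure D5:**
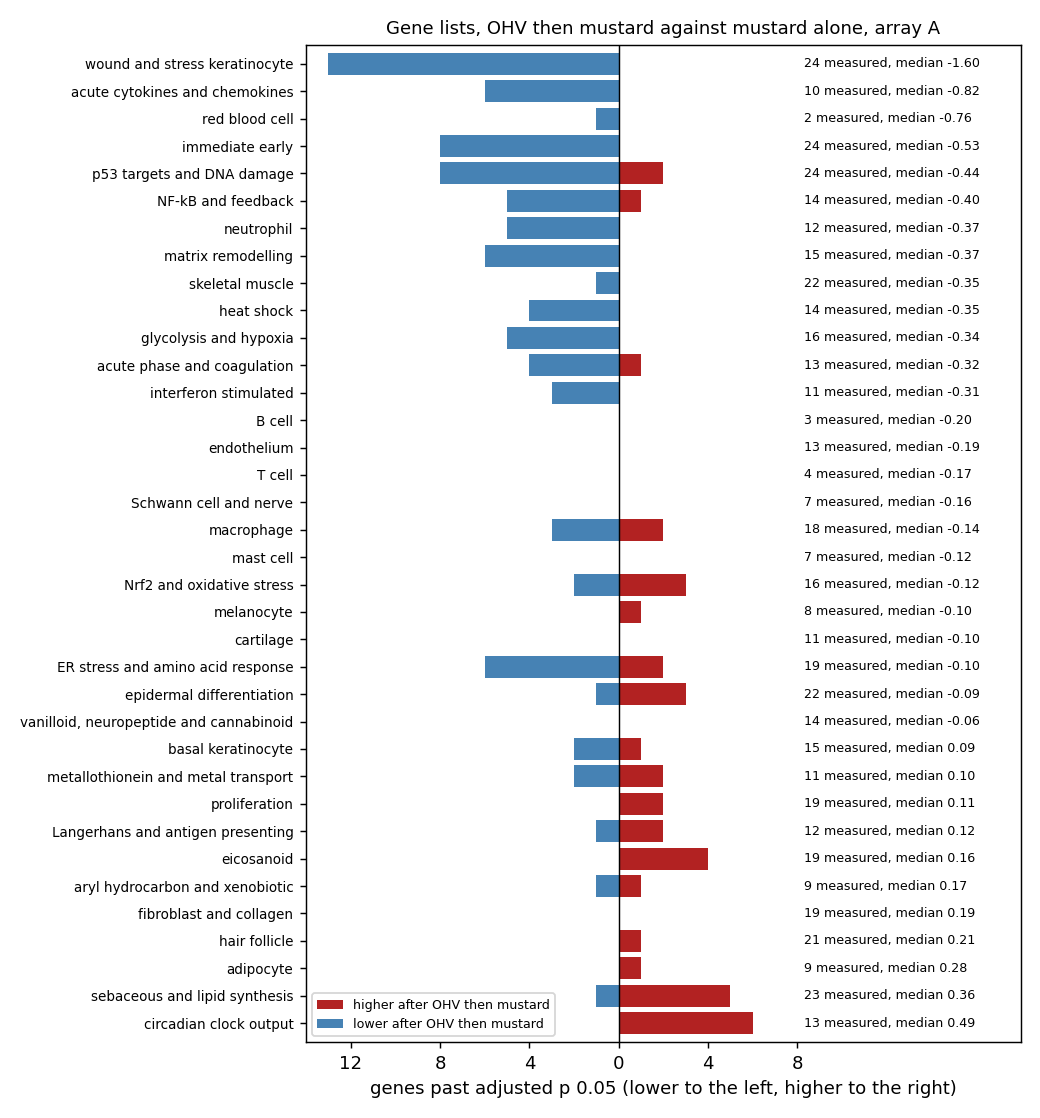
Number of genes of each list past an adjusted p of 0.05 in pretreated against mustard-alone ears on array A, with lower genes to the left in blue and higher genes to the right in red. The text at the right gives the genes measured and their median log2 difference, between -1.60 for wound and stress keratinocyte genes and 0.49 for clock output genes.

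Pretreated ears were also set beside the other ears of the series. The drugs of the series differed in dose and volume, so a difference between 2 pretreatments is one between treatments as given. Against indomethacin then mustard (6 ears), 330 of 15953 probe sets differed on array A (2.07%), with 187 higher and 143 lower, and 8 of 17287 on array B (0.0463%). Without pretreated ear 28 or 33, or with the compared groups fitted alone, 1 probe set was called on array A. Gbp2, an interferon-induced GTPase, had 146, 66.5, 137, 56.3 and 53.2 in pretreated ears, against a lowest value of 185.0, a median of 297.3 and a highest of 590.5 in indomethacin ears (log2 difference -1.73, adjusted p = 6.71e-05). Krt17 was -1.17 and Dbp 1.73 in the same comparison (adjusted p = 0.0176 and 0.0189). Against dimercaprol then mustard (6 ears), limma called 0 probe sets on either array, and 332 of array A and 586 of array B had an unadjusted p below 0.05.

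Against methylene chloride, 290 probe sets of array A were higher in pretreated ears and 151 lower, and 93 differed on array B (0.538%). Wound-response genes had 14 of 24 higher in pretreated ears and 20 of 24 higher in mustard-alone ears. Over all array A probe sets, 1.82% were higher in pretreated ears and 19.3% in mustard-alone ears. Krt16 was 3.72 higher in pretreated ears than in methylene chloride ears (adjusted p = 5.17e-07), and 5.64 higher in mustard-alone ears (adjusted p = 2.01e-12). For Cxcl2 these differences were 0.55 (adjusted p = 0.701) and 3.59, and for Mt4 -0.33 (adjusted p = 0.723) and -2.78. The 2 comparisons share their methylene chloride ears. Left ears of OHV animals (5) and of mustard-alone animals (4) gave 0 called probe sets on array A, with 1174 at an unadjusted p below 0.05, and 0 on array B, with 1058. OHV without mustard (5 ears of other animals) gave 0 calls against ethanol (3 ears) and against naive ears, with 996 and 539 probe sets at an unadjusted p below 0.05. Animal 520 gave an OHV and an ethanol ear, and these entered as separate ears. Ears of the same naive animal were averaged. The spread in that fit also came from ears given dimercaprol or indomethacin without mustard.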

How the data were processed

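Skin of mouse ears was measured on a pair of Affymetrix oligonucleotide arrays, A and B, 1 array of each kind per ear. The deposited values are probe set intensities on a linear scale, and per the submitters' processing notes the authors made them with MAS5; no scaling to a common mean was found in them. All arrays were brought to the same 2% trimmed mean, 500, and analysed as log2(scaled signal + 16). The tests took probe sets averaging 100 or more over the ears: 15953 of 22690 on array A and 17287 of 22575 on array B. limma 3.58.1 in R 4.3.3 was fitted to all 43 ears of the mustard series, with moderated variance following a trend and Benjamini-Hochberg adjustment over the kept probe sets at a threshold of 0.05. Tables were handled with data.table, version 1.17.8. Arrays A and B were fitted apart. Errors are standard errors of the log2 difference. Precision is limited by how many arrays there are. Quality measures were compared with exact permutation tests. The labels name separate animals for the ears of the groups compared. The p-values of limma measure a spread between ears that all 43 ears of the mustard series share. Left and right ears of 17 animals entered that fit as independent.

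Probe sets were named from the platform annotation. On array A 20393 had 1 symbol, 691 several and 1606 none, and on array B 14674, 245 and 7656. A gene was represented by its probe set with the highest mean. Genes named were the 10 largest rises and falls of array A and 5 of array B with every pretreated ear on 1 side of the mustard-alone mean, up to 3 members of each of 36 lists by smallest p, a panel of 28 genes, and other probe sets or genes as stated. The genes compared and the lists were chosen with earlier results of these data known. On array A simulations with 200 changed probe sets, the test recovered 78% of log2 changes of 1 and 97% of changes of 2. On array B it recovered 43% and 89%. The simulated ears were independent, with the same spread in every group, no difference in array quality and no outlying ear. The real ears differ in these respects, so the recovery does not carry over to them. No ears were duplicates, the highest correlation between ears being 0.983. Alternatives covered scaling, normalization, pseudocount, filter, samples in the fit, animal as a block, array quality as a covariate and ears left out. Over 17 animals, the residuals of left and right ears had a mean correlation of 0.164 on array A and 0.0679 on array B, and the lowest was -0.0943.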

Additional observations from a re-analysis of the deposited data

Results flagged for a closer look

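Of 206 sets of 5 ears examined, 26 held an ear far from the other 4, where chance gives about 1 in 20. The sets share the same ears and hold genes chosen from these data. They are not independent, so the 26 cannot be weighed against that rate. In mustard-alone ears, ear 36 was the low one for 13 genes. Its scaled signals were 141.4 for Cxcl1, 62.1 for Tnf, 2714.2 for S100a8, 1462.7 for S100a9 and 577.0 for Defb3. They were 3932.0 for Krt16, 2498.2 for Krt17, 6112.7 for Krt6b, 430.4 for Sprr2f and 622.3 for Epgn, and 20.5 for Has3, 328.5 for Adam8 and 196.9 for Tubb6. The same ear was the high one for Slc6a4 at 313.5, Chst15 at 207.9 and Gstm1 at 1502.5. Mustard ear 37 was high for H2-Aa at 1554.7, and mustard ear 5 for Tac1 on array B at 1300.4.

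In pretreated ears, ear 29 was high for Krt17 at 3466.7 and Tiparp at 1435.2, and low for Hspa5 at 2927.6 and Dbp at 586.1. Ear 33 was high for Mki67 at 554.0 and low for H2-Aa at 1754.4. Ear 28 was low for Csf3r at 45.3, and ear 30 had the lowest log2 Gapdh ratio of array A, -0.32. The difference from mustard alone was not the same after OHV and after indomethacin for 330 probe sets of array A and 8 of array B, by limma's test of the difference itself.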

How the results depend on the processing

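The number of probe sets that differed from mustard alone was 2723 on array A and 1650 on array B. With no rescaling it was 10950 and 4559, of which 99.7% and 99.4% were higher (61.3% and 68.5% as reported), while the median of all probe sets was 0.71 and 0.48. With the 2 groups fitted alone it was 0 and 1. With the replicate block of animal numbers as a fixed term it was 0 and 1, and as a random term 2667 and 1597; the animal number joins the left and right ear of 1 animal, no animal gave ears to both groups compared, and mustard ear 5, with no left ear used, drops out of the fixed term fit. With brightness as a covariate it was 15 and 34, and with the Gapdh ratio 26 and 35. Without mustard ears 5 and 37 it was 79 and 108, and without 5, 36 and 37, chosen after seeing the data, 1572 and 733. Leaving out 1 ear gave 1430 (without mustard ear 37) to 4136 (without mustard ear 36) on array A and 680 to 2652 (the same ears) on array B. Against indomethacin, 330 became 1 with no rescaling or with the groups alone, and 1 to 960 without 1 ear. Left ears gave 0 to 2 on array A and 0 to 12 on array B. The causes were not tested. Without mustard ears 5 and 37 the brightness difference was 0.44 and 0.34 on arrays A and B and the Gapdh difference -0.12 and -0.15. Leaving out 1 ear gave 0.58 to 0.87 and 0.48 to 0.73 for brightness, and -0.48 to -0.27 and -0.50 to -0.29 for the Gapdh ratio.

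Of the 90 called genes followed, 82 kept their call with quantile normalization, 59 with no rescaling, 90 with a pseudocount of 64, 89 with no filter, 73 without mustard ears 5, 36 and 37, 9 without 5 and 37, 4 with either covariate, and 0 with the groups alone or the fixed block. With no rescaling the sign turned for Dnajb9 (0.04), Tnf (0.19), Ldha (0.27), Hspa8 (0.39), Krt14 (0.27), Mt2 (0.11), Atf4 (0.19), Hmox1 (0.57), Cd68 (0.01) and, on array B, Tac1 (0.37). Tnf also turned with brightness as a covariate (0.04), and Tac1 without mustard ears 5, 36 and 37 (0.08); leaving out 1 ear, Tac1 ran between -0.32 (without mustard ear 3 or 37) and 0.05 (without mustard ear 5).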
